A study of Mus musculus with 8 samples.

Results

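The 10 genes described here (Mki67, Top2a, Eomes, Neurod1, Dlx2, Dcx, Sox11, Sox4, Igfbpl1 and Cd24a) are commonly read as markers of adult neurogenesis, the making of new neurons in the grown brain. They were taken by name from 22430 genes listed in the counts, by a rule that sets no threshold on a measured value but was drawn up with earlier results of these data known. All 10 passed the low-count filter (above 5 counts in 4 or more of 8 libraries), as did 16730 genes in all, which were tested together. The RNA came from brains of male C57Bl/6JRj mice, 4 at 6 months (6m) and 4 at 24 months (24m), labelled as whole brain and described in the methods as a hemisphere. No transgene, deletion or treatment was named for either age, so the groups differed by age alone as far as the sources state. Each library was made from polyadenylated RNA of 1 animal, and all regions and cell types of the tissue were homogenized together.

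In the adult mouse brain, stem cells of the subventricular zone beside the lateral ventricle give rise to dividing progenitors and then to neuroblasts, which migrate to the olfactory bulb and become interneurons there. Stem cells of the dentate gyrus give rise to granule neurons in place, and both lineages are known to dwindle with age. The cells of these niches are a small part of a hemisphere, and most of the genes also have a source outside them: Neurod1 is kept on in mature granule and other excitatory neurons, Eomes in mitral and tufted cells of the olfactory bulb, Dlx2 in forebrain interneurons and Cd24a in ependymal cells. In bulk RNA of this kind, fewer cells of a type and less RNA per cell cannot be told apart.

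Promoters (the 250 bases before to 50 bases after a start of transcription) were matched by symbol to RefSeq sequences of the build GRCm38.p6 for 8 of the 10 genes, and Igfbpl1 and Cd24a had no entry. The promoters of Dcx (chrX:143933170-143933469, the first of its 2 entries), Sox11 (chr12:27342669-27342968), Sox4 (chr13:28953650-28953949) and Neurod1 (chr2:79456587-79456886) are shown because these genes passed the age test, Sox11 and Sox4 in opposite directions. That of Top2a (chr11:99024140-99024439) is shown as the promoter of a cell division gene that did not pass. All 5 lie on the minus strand and are written 5′ to 3′ along the gene. Capitals mark each match on either strand to CCAAT (the CCAAT box, read by the factor NF-Y) or CANNTG (the E-box, read by basic helix-loop-helix factors such as NEUROD1).
Dcx: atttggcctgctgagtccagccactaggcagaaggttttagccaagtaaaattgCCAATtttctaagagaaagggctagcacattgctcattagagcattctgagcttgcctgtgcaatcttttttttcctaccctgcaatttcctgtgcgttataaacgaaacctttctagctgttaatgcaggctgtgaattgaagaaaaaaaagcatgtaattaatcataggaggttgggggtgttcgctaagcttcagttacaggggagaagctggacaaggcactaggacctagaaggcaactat
Sox11: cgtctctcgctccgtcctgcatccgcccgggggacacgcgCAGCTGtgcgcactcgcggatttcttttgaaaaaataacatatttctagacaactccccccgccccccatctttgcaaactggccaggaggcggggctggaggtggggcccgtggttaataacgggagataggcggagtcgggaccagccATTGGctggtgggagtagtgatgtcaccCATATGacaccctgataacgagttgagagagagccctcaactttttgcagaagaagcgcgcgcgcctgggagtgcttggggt
Sox4: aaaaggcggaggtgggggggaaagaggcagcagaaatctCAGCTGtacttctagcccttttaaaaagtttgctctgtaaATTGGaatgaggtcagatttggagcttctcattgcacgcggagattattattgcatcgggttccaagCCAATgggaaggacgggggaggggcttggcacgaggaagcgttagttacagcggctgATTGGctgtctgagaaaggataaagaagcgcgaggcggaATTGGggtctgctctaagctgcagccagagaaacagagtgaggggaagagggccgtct
Neurod1: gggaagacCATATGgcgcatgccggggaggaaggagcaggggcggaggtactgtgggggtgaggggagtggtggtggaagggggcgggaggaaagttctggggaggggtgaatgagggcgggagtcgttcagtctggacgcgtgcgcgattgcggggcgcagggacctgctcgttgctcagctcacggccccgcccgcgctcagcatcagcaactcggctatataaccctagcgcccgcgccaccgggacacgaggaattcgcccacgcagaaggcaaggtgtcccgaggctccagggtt
Top2a: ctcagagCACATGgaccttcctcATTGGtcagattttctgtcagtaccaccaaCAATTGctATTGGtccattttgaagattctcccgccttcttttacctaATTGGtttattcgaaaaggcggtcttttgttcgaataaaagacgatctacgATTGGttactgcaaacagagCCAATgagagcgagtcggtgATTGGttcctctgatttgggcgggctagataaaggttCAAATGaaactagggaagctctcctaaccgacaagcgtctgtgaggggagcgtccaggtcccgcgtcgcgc

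The promoter of Top2a held 6 matches to CCAAT and that of Sox4 held 4, against 1 each for Dcx and Sox11 and 0 for Neurod1. Of 32851 promoters in the RefSeq table, 37.4% held CCAAT at least 1 time and 89 (0.271%) held it 5 times or more. E-box matches numbered 3 for Top2a, 2 for Sox11, 1 each for Sox4 and Neurod1 and 0 for Dcx, and 72.3% of all promoters held 1 or more. TTTGAA, the core of the CHR element of cell cycle promoters, matched on both strands, was found 2 times each in the promoters of Top2a and Mki67, 1 time in that of Sox11 and in 17.9% of all. The Dcx promoter was poor in CpG, with 3 such steps against a median of 7 over all promoters, and the Sox11 promoter held 21. These matches describe the letters of the window and were not tested for binding.

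Library totals were 63460940 to 103462414 counts, with the deepest at 24m replicate 1. The 5 neuronal markers fixed as a check of the tissue (Rbfox3, Syt1, Slc17a7, Gad1 and Snap25) summed to 2154 to 2694 CPM (counts per 1e+06, scaled by the trimmed mean of M values) at 6m and to 2958 to 3365 CPM at 24m. Replicate 4 of the 24m animals held the highest value of 30.9% of tested genes and the lowest of 30.1%, more than any other library. Replicate 1 of that age held the highest sum of lymphocyte markers, 7.08 CPM, against 1.04 to 1.57 CPM at 6m. Chi-square comparisons of replicates gave 179 to 417 per degree of freedom for the 3 pairs with 24m replicate 1 and 8.18 to 61.2 for the other 9 pairs, so that library, also the deepest, stood apart by this measure. Without it Dcx (log2FC 2.28), Sox11 (0.94), Neurod1 (1.11), Sox4 (-1.06) and Igfbpl1 (-1.004), the genes called below, kept their calls. The 4 libraries of an age are separate animals, and the p-values below measure the spread between them.

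Dcx, Sox11 and Neurod1 rose at 24m, Sox4 and Igfbpl1 fell, and Mki67, Top2a, Eomes, Cd24a and Dlx2 did not pass the test, whose thresholds were 0.05 for the adjusted p and 0.58 for the size of the log2 fold change (log2FC). Thus 3 of 10 were called higher, where the background over all tested genes was 25.3%, and 2 of 10 were called lower, where it was 18.3%, so that 5 of 10 passed the test in either direction against 43.6% of all tested genes. The libraries of the 2 ages did not overlap for 3 of the 10 genes (Neurod1 above, Sox4 and Igfbpl1 below), against 55.2% of all tested genes, of which 28.4% were above and 26.8% below. The median log2FC of the 10 was -0.076, beside -0.0034 over all tested genes.

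**Figure D1:**
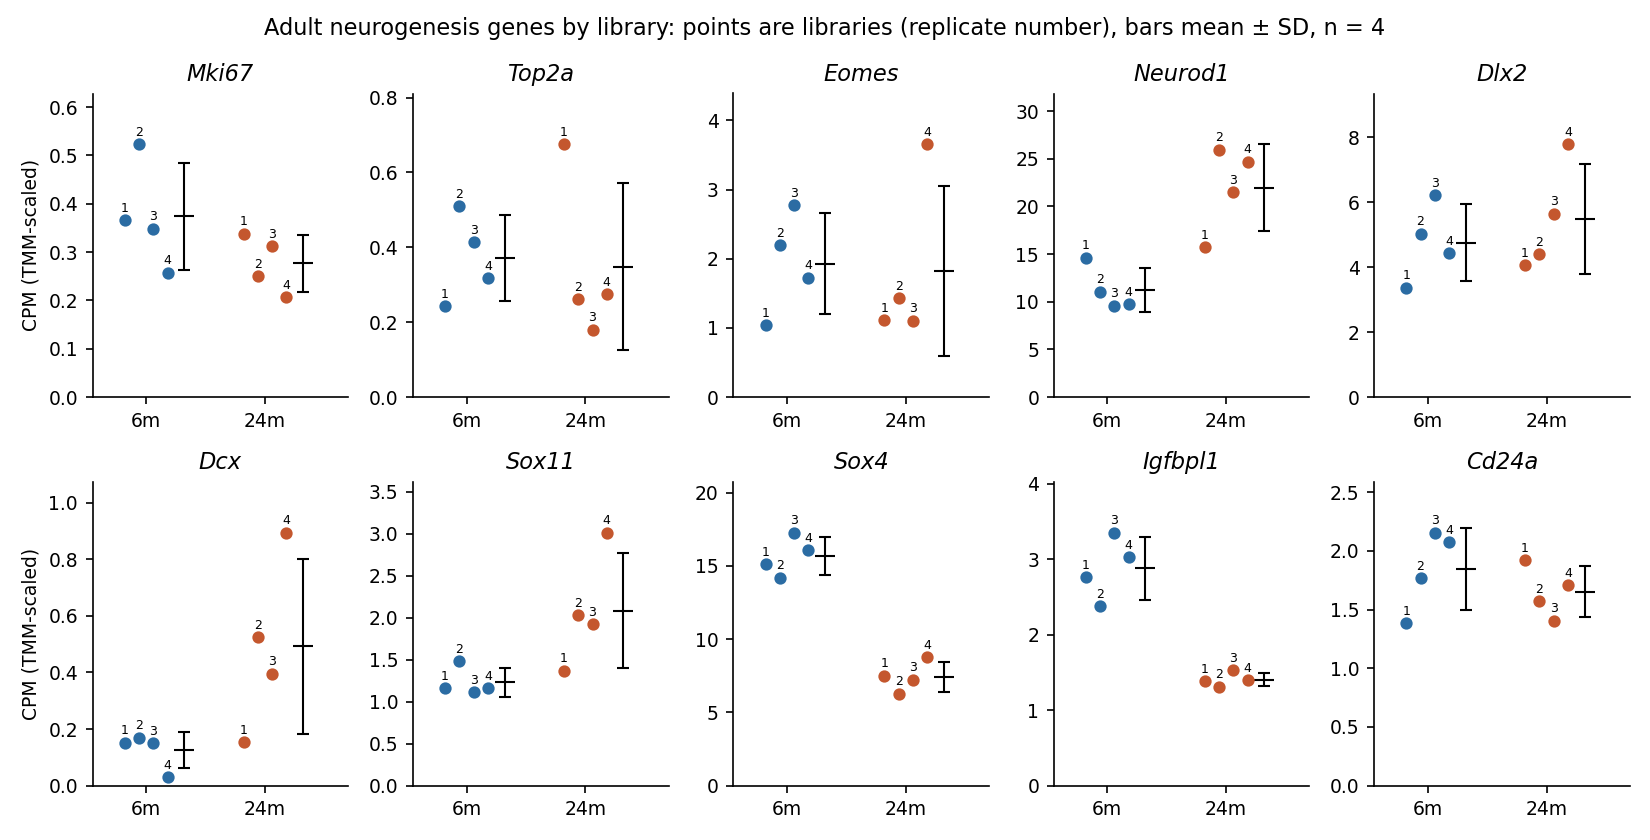
CPM of the 10 genes in each library (vertical axis from 0, on its own scale for each gene), with 6m in blue and 24m in red, replicate numbers beside the points and bars for the mean ± SD of 4 libraries. The ages separate for Neurod1, Sox4 and Igfbpl1 and overlap for the other 7, and replicate 4 of 24m is the highest point for Eomes, Dlx2, Dcx and Sox11.

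The genes of cell division were near the lower end of what was measured. Mki67, which encodes the Ki-67 protein of all cycling cells (chromosome 7, 135291513 to 135318299 on GRCm39, the build of all positions given from here on), had 24, 37, 21 and 17 counts at 6m and 35, 20, 26 and 18 at 24m, replicates 1 to 4. Scaled for depth these were 0.366, 0.523, 0.348 and 0.257 CPM at 6m and 0.338, 0.250, 0.312 and 0.206 CPM at 24m. The highest 2 values were both of 6m and the lowest 2 both of 24m, with the others mixed. The log2FC was -0.43 ± 0.27 (SE), with an edgeR adjusted p of 0.19 and a 95% interval from -1.05 to 0.18. The counts summed to 99 at each age, and the exact Poisson interval of a single library, such as 0.234 to 0.544 CPM for 6m replicate 1, spanned most of the values of the other age.

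Top2a encodes topoisomerase II alpha, which untangles chromosomes in dividing cells (chromosome 11, 98883769 to 98915062). Its libraries held 0.244, 0.509, 0.415 and 0.318 CPM at 6m and 0.676, 0.262, 0.180 and 0.275 CPM at 24m. One old animal, replicate 1, was the highest of all 8, and the other 3 old animals were among the lowest 4. The log2FC was -0.07 ± 0.42 (adjusted p = 0.89). Without 24m replicate 1, the library with the highest lymphocyte markers, it was -0.61 with an adjusted p of 0.099 and still did not pass, and the part of lymphocytes in the value was not tested. Of 8 lymphocyte markers 3 could be tested and 1 rose, Nkg7, with sums of 0.688 to 7.08 CPM at 24m. Oligodendrocyte precursors are the main dividing cells outside the niches, and of 6 of their markers 2 rose, Pdgfra and Gpr17, a share near the 25.3% of all tested genes, while Neu4 was not called but lower in all old animals (log2FC -0.35, adjusted p = 0.034), with sums of 154 to 189 CPM at 6m and 188 to 233 CPM at 24m.

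The other genes of mitosis, fixed as a list of 22, were tested for 21, Bub1 having too few counts. Of these 10 fell, 1 rose and 10 were not called (18.3% of all tested genes fell and 25.3% rose), with a median log2FC of -0.69. Kif20a, a kinesin of cytokinesis, fell from 10.3 ± 0.541 CPM to 6.08 ± 0.831 CPM (SD, n = 4; log2FC -0.76, edgeR adjusted p = 0.00068). Bub1b, a spindle checkpoint kinase, fell by 0.85 on the log2 scale, and Plk1, the polo-like kinase of mitosis, fell by 0.95. Of 4 erythroid markers tested 3 fell (Hbb-bs, Hba-a1 and Alas2, log2FC -1.52 to -1.04). These were lower in all old animals than in any young one, as were 26.8% of all tested genes. Slc4a1 was not called (0.43), and the list summed to 2911 to 4070 CPM at 6m and 664 to 2213 CPM at 24m. Of 6 microglia markers 2 rose, Cx3cr1 and P2ry12, with sums of 410.0 to 441 CPM and 422 to 568 CPM. The part of either cell type in the mitosis genes was not tested. Kif11, the kinesin that separates the spindle poles, rose by a log2FC of 0.96, from 0.157 to 0.306 CPM, and was no longer called with the trend over exonic length removed (0.63, adjusted p = 0.069). With library totals alone as the scaling, which moved the median of all genes to 0.21, 5 of the 21 fell, and Kif20a (-0.55) and Bub1b (-0.62, adjusted p = 0.065) were not among them. Top2b, the topoisomerase II of resting cells and neurons, was not called at 44.1 ± 4.31 CPM and 31.95 ± 4.62 CPM (log2FC -0.46), but fell with the length trend (-1.004) or the GC trend (-0.75) removed.

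Of 14 S phase genes 1 fell and the other 13 were not called, against 18.3% and 25.3% of all tested genes called lower and higher, with a median log2FC of -0.026. The gene that fell was Hells, a chromatin remodeller of dividing cells, from 0.780 ± 0.314 CPM to 0.322 ± 0.0596 CPM (log2FC -1.27, edgeR adjusted p = 0.0058). Pcna, the sliding clamp of replication, lay at 36.3 ± 2.37 CPM and 35.6 ± 2.23 CPM, and Pcna and the Mcm helicase subunits are used in DNA repair and are present in resting cells too.

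Eomes (also known as Tbr2) encodes a T-box factor of intermediate progenitors on the way to excitatory neurons (chromosome 9, 118307280 to 118315200). It was measured at 1.04, 2.19, 2.77 and 1.72 CPM at 6m and at 1.11, 1.44, 1.10 and 3.66 CPM at 24m. Replicate 4 of 24m lay apart from the other old animals, and 3 of the old animals were below 3 of the young ones. The log2FC was -0.08 ± 0.43 (adjusted p = 0.88), with a 95% interval from -1.04 to 0.88. Its sign turned with the library left out: without 24m replicate 4 the log2FC was -0.67 (adjusted p = 0.087), and without 6m replicate 3 it was 0.14.

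The markers of olfactory bulb mitral and tufted cells, which also express Eomes, varied among the animals of 1 age in the same libraries. Tbx21 stood at 0.183, 1.47, 2.97 and 0.938 CPM at 6m and at 0.589, 0.150, 0.264 and 1.77 CPM at 24m. Cdhr1 stood at 2.13, 9.82, 10.6 and 5.34 CPM at 6m and at 4.17, 5.79, 5.97 and 23.0 CPM at 24m. In both, as for Eomes, 6m replicate 1 was the lowest of its age, 6m replicate 3 the highest, and 24m replicate 4 the highest of the old animals. The 4 markers summed to 26.7 to 130.0 CPM at 6m and to 18.4 to 66.0 CPM at 24m. Of the 4, Doc2g fell (log2FC -2.02, adjusted p = 0.012) and Shisa3 rose (0.84, adjusted p = 0.043), with the ages overlapping for all 4. Tbx21 was called lower without 24m replicate 4 (-2.01, adjusted p = 0.049). The Shisa3 call was lost in 8 of 21 alternative fits, among them limma-voom (0.78, adjusted p = 0.077), quantile-normalized counts in DESeq2 (0.48, adjusted p = 0.13) and the fits without 6m replicate 1 or 4 or 24m replicate 2, 3 or 4 (0.59 to 0.88). The part that the amount of olfactory bulb in each library has in the Eomes values was not tested.

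**Figure D2:**
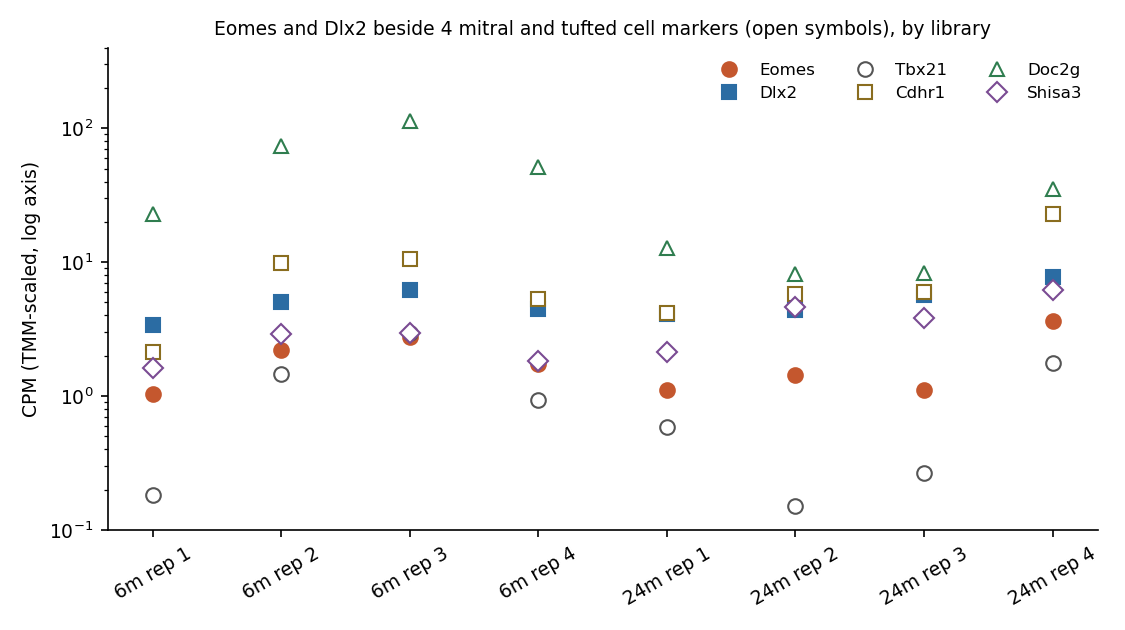
CPM on a log axis of Eomes and Dlx2 (filled symbols) and of 4 markers of mitral and tufted cells (open symbols), library by library. All 6 genes have their lowest 6m value in replicate 1, their highest 6m value in replicate 3 and their highest 24m value in replicate 4.

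Tbr1, the T-box factor that follows Eomes in excitatory neurons and stays on in mature cortical ones, rose from 19.5 ± 3.98 CPM to 47.8 ± 16.4 CPM (log2FC 1.29, edgeR adjusted p = 0.0022). The ratio of Eomes to Tbr1 within a library, both per kilobase of exon, was 0.0890 to 0.160 at 6m and 0.0260 to 0.0778 at 24m. This ratio does not depend on how libraries are scaled, and the ages did not overlap. It was 1 of 6 such ratios, all chosen after the values were seen and given as descriptions.

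Neurod1, a basic helix-loop-helix factor of neuronal differentiation (chromosome 2, 79282865 to 79287294), was one of the 2 most abundant of the genes. It was measured at 14.6, 11.1, 9.60 and 9.77 CPM at 6m and at 15.7, 26.0, 21.5 and 24.7 CPM at 24m. Every old animal was above every young one, narrowly for 24m replicate 1 against 6m replicate 1. The means were 11.3 ± 2.33 CPM and 22.0 ± 4.58 CPM (SD, n = 4), a 1.95-fold rise (log2FC 0.96 ± 0.19, edgeR adjusted p = 0.0017). The call held in all 21 alternative fits, with a log2FC of 0.74 to 1.24. The gene overlaps Cerkl on its own strand, so reads could be shared between them.

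Of 5 markers of cerebellar granule cells, in which Neurod1 is known to stay on, 4 rose (Gabra6, Cbln3, Zic1 and Zic2), beside 25.3% of all tested genes. Barhl1 was not called (log2FC 0.09, edgeR adjusted p = 0.67). The list summed to 79.0 to 107 CPM at 6m and 155 to 196 CPM at 24m. Gabra6 lost its call with the GC trend removed (0.36, adjusted p = 0.082), with quantile-normalized counts in DESeq2 (0.50) and without 6m replicate 3 or 24m replicate 2 (0.58 and 0.56). Cbln3 rose from 11.9 ± 2.17 CPM to 38.3 ± 6.83 CPM (log2FC 1.69). Gabra6 was highest among the young animals in replicate 1 (23.4 CPM, beside 14.9 to 16.1 CPM in the other 3), which was also the young animal with the most Neurod1. Of 5 dentate granule cell markers 1 rose, Prox1 (log2FC 1.32), a share near the 25.3% of all tested genes. Among those not called, C1ql2 was lower in all old animals (log2FC -0.35, edgeR adjusted p = 0.039) and Tdo2 was higher in all (0.55, 0.017). The list summed to 38.3 to 50.2 CPM at 6m and 38.9 to 44.7 CPM at 24m. The part of either granule cell type in the Neurod1 difference was not tested.

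Among its relatives, Neurod2, a factor of mature cortical neurons, rose from 31.6 ± 1.15 CPM to 55.1 ± 8.78 CPM (log2FC 0.80, edgeR adjusted p = 0.00044). Neurod6 stood at 26.0 ± 3.35 CPM and 23.9 ± 1.60 CPM and was not called (log2FC -0.12). Neurod4 had too few counts to be tested. The ratio of Neurod1 to Neurod2 per kilobase of exon was 0.439 ± 0.101 at 6m and 0.488 ± 0.0487 at 24m (SD, n = 4), and the ages overlapped.

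Dlx2 encodes a homeodomain factor of interneuron progenitors, including those of the subventricular zone (chromosome 2, 71373752 to 71377102). It was measured at 3.37, 5.03, 6.22 and 4.43 CPM at 6m and at 4.06, 4.41, 5.66 and 7.80 CPM at 24m. The ages were interleaved, with 24m replicate 4 above all others. The log2FC was 0.20 ± 0.24 (adjusted p = 0.49, 95% interval from -0.34 to 0.74), and it was -0.016 without 24m replicate 4. Its neighbour Dlx1, with which it shares enhancers, stood at 18.8 ± 3.82 CPM and 16.0 ± 2.36 CPM (log2FC -0.24, adjusted p = 0.22). Dlx5 was not called (log2FC -0.31; it was with quantile-normalized counts in DESeq2, at -0.62), and Dlx6 fell from 9.02 ± 0.844 CPM to 5.36 ± 1.01 CPM (log2FC -0.75, edgeR adjusted p = 0.0018). The Dlx6 call was lost with library totals alone (-0.53) and with the trend over exonic length removed (-0.42, adjusted p = 0.066).

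Within each library the ratio of Dlx2 to Dlx1 per kilobase of exon was 0.442 to 0.498 at 6m and 0.529 to 0.759 at 24m. The ages did not overlap in this ratio, with a log2 difference of 0.42. Neither gene alone passed the test.

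**Figure D3:**
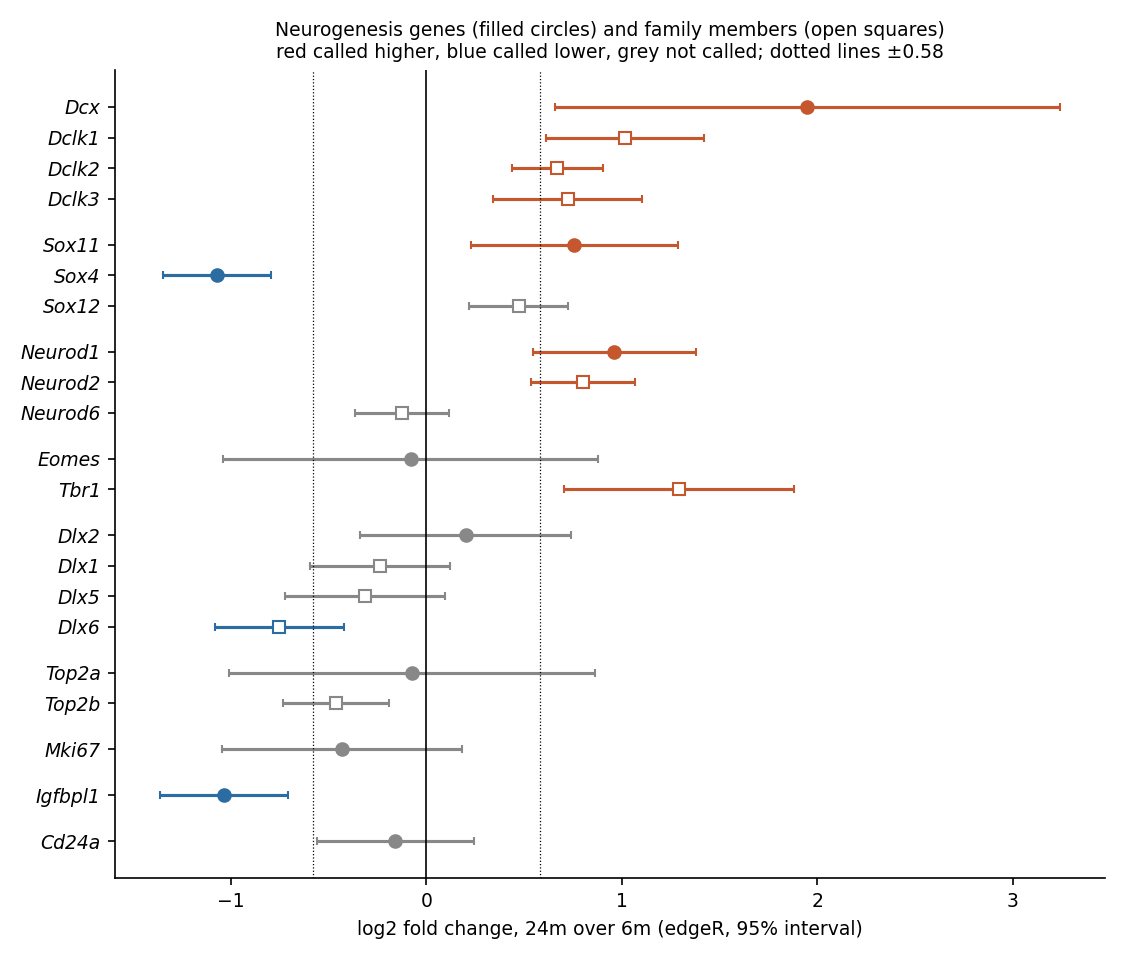
Log2FC of 24m over 6m with its 95% interval for the 10 genes (filled circles) and 11 tested genes of their families (open squares), coloured by call, with dotted lines at 0.58 and -0.58. Dcx and its relatives Dclk1, Dclk2 and Dclk3 all lie to the right, Sox11 and Sox4 lie on opposite sides, and the intervals of Eomes and Top2a reach past both dotted lines.

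Dcx encodes doublecortin, a microtubule-binding protein of migrating neuroblasts and the usual label of newborn neurons (chromosome X, 142638838 to 142716307, minus strand). It had the lowest level per kilobase of exon of the 10 genes at 6m, though not at 24m, with 10, 12, 9 and 2 counts at 6m and 16, 42, 33 and 78 counts at 24m. These were 0.152, 0.170, 0.149 and 0.0303 CPM at 6m and 0.154, 0.524, 0.396 and 0.894 CPM at 24m. Replicates 2, 3 and 4 of 24m were above every young animal, while 24m replicate 1 lay within the young range. The fit gave a 3.86-fold rise (log2FC 1.95 ± 0.58, edgeR adjusted p = 0.015, 95% interval from 0.66 to 3.24), larger than that of 96.7% of tested genes.

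The Dcx difference rested on 33 counts in all at 6m and 169 at 24m. The exact Poisson intervals, which cover counting error only, were 0.00367 to 0.109 CPM for 6m replicate 4 and 0.707 to 1.12 CPM for 24m replicate 4. Leaving out each library in turn gave a log2FC of 1.48 to 2.28 and kept the call in all 8 fits, with 1.48 (adjusted p = 0.037) without 24m replicate 4. The mean of 0.492 ± 0.309 CPM at 24m placed the gene below most tested genes, as its mean over the 8 libraries exceeded that of 7.49% of them. A filter at 1 CPM in 4 libraries left it out of the test. The Dcx call was lost with a replicate block and the trend over exonic length removed together (log2FC 1.34, edgeR adjusted p = 0.054).

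The doublecortin-like kinases, which share the doublecortin domain and are made by mature neurons and glia, were far more abundant and rose as well. Dclk1 rose from 89.8 ± 14.0 CPM to 182 ± 43.5 CPM (log2FC 1.02), Dclk2 from 47.6 ± 4.68 CPM to 75.7 ± 7.49 CPM (0.67) and Dclk3 from 21.6 ± 3.45 CPM to 35.7 ± 7.55 CPM (0.72), with edgeR adjusted p from 0.00054 to 0.0047. With the trend over exonic length removed the calls of Dclk1 (0.35) and Dclk2 (0.17, adjusted p = 0.18) were lost. The ratio of Dcx to Dclk1 per kilobase of exon was 0.000521 to 0.00377 at 6m and 0.00210 to 0.00663 at 24m, and the ages overlapped.

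Sox11 and Sox4 are closely related transcription factors of the SoxC group, both known for driving the genes of early neuronal differentiation. Sox11 (chromosome 12, 27384263 to 27392573, 1 exon) was measured at 1.16, 1.49, 1.11 and 1.17 CPM at 6m and at 1.37, 2.03, 1.92 and 3.02 CPM at 24m. All old animals but replicate 1 were above all young ones. It rose 1.69-fold (log2FC 0.76 ± 0.24, edgeR adjusted p = 0.019). Without 24m replicate 4 the log2FC was 0.53 (adjusted p = 0.045), below the threshold of fold change. The Sox11 call was lost in 5 of 21 alternative fits, also with quantile-normalized counts in DESeq2 (0.46, adjusted p = 0.059), with the GC trend removed (0.57), and with the length trend removed alone (0.44) or with a replicate block (0.42).

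Sox4 (chromosome 13, 29132902 to 29137696, 1 exon) was measured at 15.1, 14.2, 17.3 and 16.1 CPM at 6m and at 7.51, 6.28, 7.23 and 8.75 CPM at 24m. The lowest young animal was well above the highest old one. It fell to 0.475 of its 6m level, from 15.7 ± 1.31 CPM to 7.44 ± 1.02 CPM (SD, n = 4; log2FC -1.07 ± 0.12, edgeR adjusted p = 0.00012). The call held in all 21 alternative fits, with a log2FC of -1.33 to -0.85. On the other strand the gene is overlapped by A330102I10Rik, and how strand was used in counting was not given in the sources used here.

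Per kilobase of exon, Sox11 was 0.0443, 0.0603, 0.0371 and 0.0419 of Sox4 at 6m and 0.105, 0.187, 0.153 and 0.199 at 24m. Every old animal was above every young one, with a log2 difference of 1.79. The ratio was taken after both genes were seen to differ, so it is a description with no test. At both ages Sox4 remained the more abundant of the pair. Sox12, the remaining SoxC gene, stood at 9.69 ± 0.890 CPM and 13.4 ± 1.33 CPM, with all old animals above all young ones, but its log2FC of 0.47 was below the threshold (adjusted p = 0.0051). Sox12 was called higher in 3 of 21 alternative fits, among them library totals alone (0.69) and the GC trend removed (0.68).

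Igfbpl1 encodes a secreted protein resembling insulin-like growth factor binding proteins and is a marker of early neuroblasts (chromosome 4, 45809254 to 45826923). It was measured at 2.76, 2.38, 3.35 and 3.03 CPM at 6m and at 1.38, 1.31, 1.52 and 1.40 CPM at 24m. All young animals were above all old ones, and the old ones were close to each other. It fell 2.05-fold, from 2.88 ± 0.413 CPM to 1.40 ± 0.0894 CPM (log2FC -1.03 ± 0.15, edgeR adjusted p = 0.00034), and the call held in all 21 alternative fits.

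Cd24a encodes a small surface glycoprotein of neuroblasts that is also made by ependymal cells (chromosome 10, 43454280 to 43460264). It was measured at 1.39, 1.77, 2.16 and 2.07 CPM at 6m and at 1.92, 1.57, 1.40 and 1.71 CPM at 24m. The ages overlapped throughout. The log2FC was -0.16 ± 0.18 (adjusted p = 0.46, 95% interval from -0.56 to 0.24). Of 7 ependymal markers 4 fell (Ccdc153, Tmem212, Rarres2 and Dynlrb2), beside 18.3% of all tested genes. The sum of the list was 90.7 to 111 CPM at 6m and 50.4 to 78.4 CPM at 24m, of which Rarres2 alone was 62.2 ± 6.54 CPM and 33.0 ± 6.44 CPM. Hydin (log2FC 0.31) and Ak7 (-0.39) were not called. Foxj1, the defining factor of ciliated ependymal cells, was not among those that fell, at 14.2 ± 1.30 CPM and 16.4 ± 2.84 CPM (log2FC 0.21, adjusted p = 0.20), and the part of ependymal cells in the Cd24a values was not tested.

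Compared per kilobase of exon over the 8 libraries, the most abundant of the 10 genes was Neurod1 with a mean level of 5.47 CPM per kilobase, followed by Sox4 with 2.41, Dlx2 with 1.79, Cd24a with 0.677, Igfbpl1 with 0.618, Eomes with 0.452 and Sox11 with 0.199. Top2a with 0.0395, Mki67 with 0.0317 and Dcx with 0.0244 formed the low end. The length is that of all annotated exons joined, 12647 bases for Dcx against 9071 in its canonical (main annotated) transcript, and 10270 for Mki67 by either. The order of these low genes therefore depends on the length used. By age, Neurod1 (3.71) and Sox4 (3.27) were close at 6m, and at 24m Neurod1 (7.22) was well ahead of Sox4 (1.55). Dcx (0.00992) was below both Mki67 and Top2a at 6m, and at 24m the 3 lay between 0.0269 and 0.0389.

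Over all tested genes the log2FC was correlated with exonic length (Pearson r = 0.376 across 16677 genes, which are not independent replicates). Dcx (12647 bases), Mki67 (10270), Top2a (9115) and Sox11 (8311) are the longest of the 10 genes, and Cd24a (2583) and Dlx2 (2859) the shortest. With this trend removed by an offset for each library, the log2FC was 1.44 for Dcx (adjusted p = 0.027) and 0.44 for Sox11, which was no longer called (adjusted p = 0.081). Mki67 then fell, with a log2FC of -0.80 (adjusted p = 0.037). Neurod1, Sox4 and Igfbpl1 kept their calls.

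**Figure D4:**
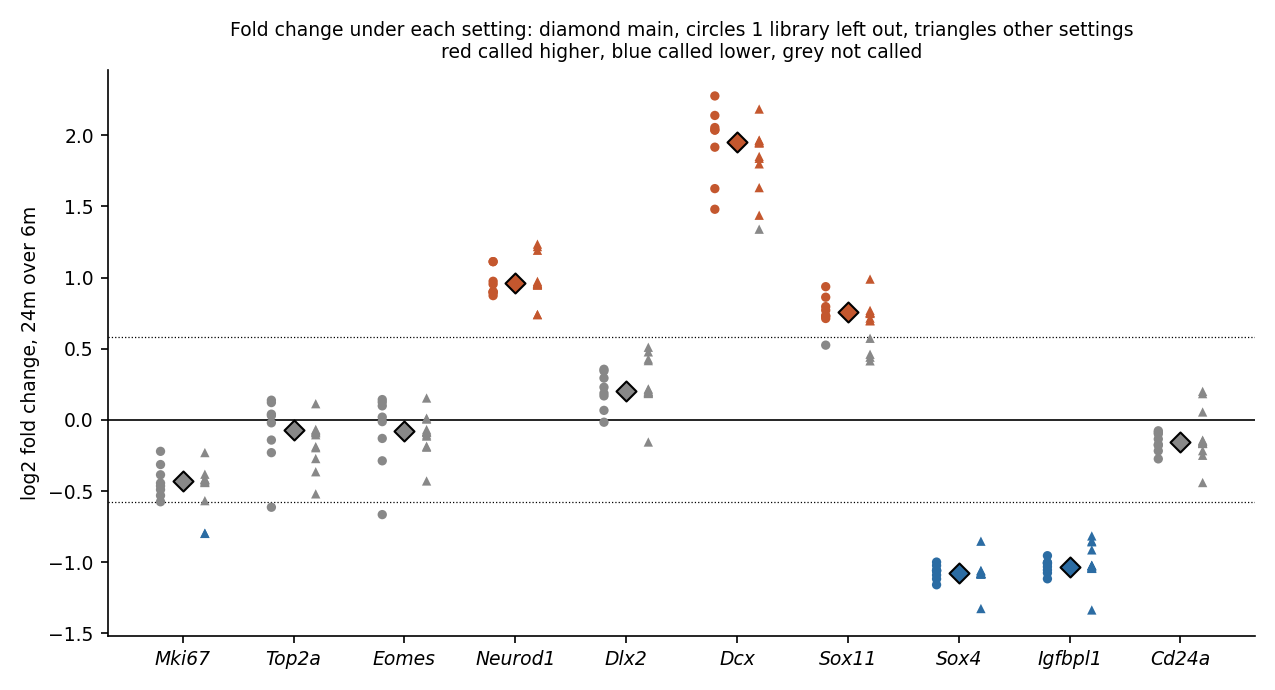
Log2FC of the 10 genes in the fit as reported (diamonds), with 1 library left out (circles) and under the other settings (triangles), coloured by call, with dotted lines at 0.58 and -0.58. Neurod1, Sox4 and Igfbpl1 keep their colour throughout, Dcx loses it in 1 fit and Sox11 in 5, and the values of Top2a, Eomes, Dlx2 and Cd24a lie on both sides of 0.

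Of 16 genes of neural stem cells, which stand at the start of the lineage and many of which astrocytes also express, 4 rose and 2 fell, shares near the 25.3% and 18.3% of all tested genes, with a median log2FC of -0.14. Notch1, the receptor that keeps stem cells undifferentiated, rose from 8.90 ± 0.811 CPM to 20.3 ± 4.38 CPM (log2FC 1.19). Nr2e1 (Tlx), a nuclear receptor of adult stem cells, rose by a log2FC of 1.30, and Egfr, the growth factor receptor of activated stem cells, by 1.01. Hes1, a target of Notch signalling, fell by 0.88 on the log2 scale and Fabp7, the fatty acid binding protein of radial glia, fell by 1.19. With the trend over exonic length removed Egfr (0.56) and Fabp7 (-0.52, adjusted p = 0.056) were no longer called. Of 5 astrocyte markers 4 rose (Gfap, Aqp4, Slc1a3 and Gja1), beside 25.3% of all tested genes. Aldh1l1 was not called (log2FC -0.26, edgeR adjusted p = 0.072). The list summed to 414 to 461 CPM at 6m and 863 to 1012 CPM at 24m. What part astrocytes had in the stem cell genes was not tested.

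Of 24 other genes of progenitors and immature neurons 7 rose and 5 fell, again near the background of 25.3% and 18.3%, with a median log2FC of 0.27. Dpysl5, a collapsin response mediator protein of growing axons, rose by a log2FC of 1.39 and Elavl2, a neuronal RNA-binding protein, by 1.54. Tubb3, the neuronal beta-tubulin, fell from 1166 ± 85.3 CPM to 753 ± 163 CPM (log2FC -0.63), Stmn1, the microtubule regulator stathmin, fell by 0.86 and Rnd2, a small GTPase of migrating neurons, fell by 0.86. Tubb3 lost its call in 6 of 21 alternative fits, among them library totals alone (-0.42), quantile-normalized counts in DESeq2 (-0.31), the length trend removed (-0.42) and the fit without 24m replicate 4 (-0.55), and Stmn1 lost its call with quantile-normalized counts (-0.51). Tubb3, Stmn1 and Rnd2 are abundant in mature neurons as well.

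Of 15 genes for cues and signalling of neuroblast migration 10 rose and 1 fell, beside 25.3% and 18.3% of all tested genes, with a median log2FC of 1.10. The log2FC was correlated with exonic length over all tested genes. This list holds long genes (Slit2, 32191 bases, and Reln, 23738) and short ones (Prok2, 2376, and Cdk5r1, 4162), and the part of length in its shift was not tested. Reln, the secreted guide of neuronal positioning, rose from 28.9 ± 4.25 CPM to 82.5 ± 27.8 CPM (log2FC 1.51, edgeR adjusted p = 0.00050). Pafah1b1 (Lis1), a dynein regulator, rose by a log2FC of 1.06 and Cdk5r1 (p35), the activator of the kinase Cdk5, by 1.94, while Cdk5 itself fell by 0.69. The Cdk5 call was lost with library totals alone (-0.48) and with quantile-normalized counts in DESeq2 (-0.57). Reln (0.80 to 1.745), Pafah1b1 (0.62 to 1.29) and Cdk5r1 (1.78 to 2.17) kept their calls in all 21 alternative fits. Most of these genes are also expressed by mature neurons. Of the 5 neuronal markers 2 rose, Syt1 and Gad1 (log2FC 1.55 and 1.16), while Slc17a7 (0.27), Snap25 (0.55) and Rbfox3 (-0.35, with all old animals below all young ones) were not called.

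**Figure D5:**
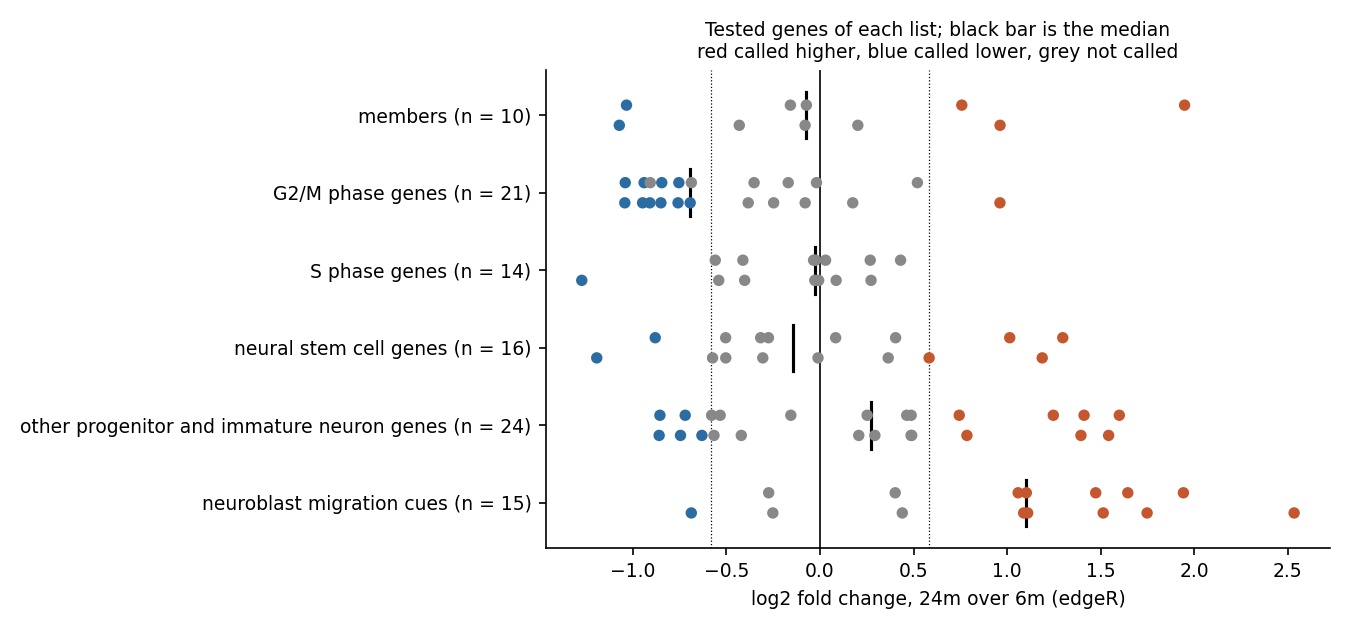
Log2FC of the tested genes of each fixed list (one point per gene, horizontal axis), coloured by call, with a black bar at the median of the list and dotted lines at 0.58 and -0.58. The median of the mitosis genes is -0.69, that of the S phase genes is -0.026 and that of the migration genes is 1.10, beside -0.0034 for all tested genes.

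Finally, genes that varied most like the 2 most abundant members among animals of 1 age were sought over 13969 genes whose mean reached 1 CPM, by Pearson's r of log2 CPM deviations from the age means. The 8 libraries carry 6 independent deviations, and the values are a description. For Neurod1 the closest included Zcchc9 (r = 0.98), Hydin (0.97), Siah1b (0.97) and Zfp81 (0.96). For Sox4 they included Cfap99 (0.96), Pak1ip1 (0.95), Mmp14 (0.93) and Spidr (0.92). None of the other 9 neurogenesis genes was among the 5 closest of either.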

How the data were processed

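The authors trimmed reads and aligned them to GRCm39 with HISAT2 2.1.0, per the submitters' processing notes, and counted them per Ensembl gene by featureCounts, for which the use of strand was not given in the sources used here. The deposited table holds raw counts per gene and library, and was used unchanged, with CPM (counts per 1e+06, scaled by TMM factors) computed from it. The authors themselves applied quantile normalization and then a row-wise median normalization before DESeq2. The fits here with quantile-normalized counts left out the median step, so they do not repeat the authors' procedure. Of 22430 identifiers, 22281 matched the later GENCODE annotation of the same build used for positions and exonic lengths (the union of exons), and the 149 others held 0.312% of counts. No replicates agreed within sampling noise, so each library counted as 1 sample.

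Ages were compared in edgeR 4.0.16 under R 4.3.3 (glmQLFit and glmQLFTest), age as the only term and Benjamini-Hochberg adjustment over 16730 genes, and SEs are the log2FC over the root of F. The thresholds are those of the study. In simulated data of the same size 90.5% of 200 genes changed by a log2FC of 1 were recovered with 13 false calls, and 0 were called where none changed. Every gene was simulated with the same dispersion and no library stood apart, while 43.6% of tested genes were called in the real data. The rates therefore do not describe these libraries or low-count genes such as Dcx. The text names all 10 genes and their families, up to 3 called genes per direction and list with the highest mean CPM, and the 5 closest genes of 2 members, except that some genes the rule names are not reported here; marker genes, Pcna and the ratios were named outside that rule after their values were seen. Members and lists were chosen with earlier results of these data known. Alternatives were other scalings, limma-voom (limma 3.58.1), DESeq2 1.42.0, other filters, 1 library left out, a replicate block, length or GC trends removed and thinning to the smallest total.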

Additional observations from a re-analysis of the deposited data

Results flagged for a closer look

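In groups of 4 libraries, a value was picked out where its gap to the nearest other exceeded Dixon's limit, and 7 of 100 groups examined had one, where chance gives about 1 in 20. Among the neurogenesis genes these were Dcx in 6m replicate 4 (0.0303 CPM, low), Sox11 in 6m replicate 2 (1.49 CPM, high) and Eomes in 24m replicate 4 (3.66 CPM, high). The same old animal was high for the mitral and tufted cell marker Cdhr1 (23.0 CPM). The others were Neurod2 in 24m replicate 1 (41.99 CPM, low), Hes1 in 6m replicate 4 (22.3 CPM, high) and Gabra6 in 6m replicate 1 (23.4 CPM, high).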

How the results depend on the processing

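Over 21 alternatives the number of neurogenesis genes called higher was 1 to 3 and called lower 2 to 3. It was 1 higher with the replicate block and the length trend removed together, where Dcx (log2FC 1.34, edgeR adjusted p = 0.054) and Sox11 (0.42) lost their calls, and with 1 library left out it was 2 to 3 higher and 2 lower. Sox11 also lost its call with quantile-normalized counts in DESeq2 (0.46, adjusted p = 0.059), with the GC trend removed (0.57), with the length trend removed and without 24m replicate 4. Over all tested genes 3825 to 4673 were called higher and 2615 to 3592 lower with 1 library left out, beside 4237 and 3058 in all 8. The balance moved with the scaling: 5449 were higher and 1746 lower with library totals alone, and 3573 higher and 3891 lower with quantile-normalized counts in DESeq2, while with no fold threshold 4999 were lower.

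The replicate numbers are shared by the ages, but deviations of same-numbered libraries correlated at 0.27, 0.14, 0.078 and -0.35, so they did not pair the animals. With a replicate block 4112 genes were called higher and 3130 lower, and 3 and 2 of the neurogenesis genes, as without it.

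The log2FC changed sign for genes that were not called. With library totals alone it was 0.11 for Top2a, 0.15 for Eomes, 0.056 for Cd24a and 0.095 for Neurod6. With the length trend removed it was 0.0060 for Eomes, 0.18 for Cd24a, 0.12 for Dlx5 and 0.31 for Neurod6, and with the block as well 0.20 for Cd24a, 0.094 for Dlx5 and 0.31 for Neurod6. With the GC trend removed it was 0.012 for Eomes, and with quantile-normalized counts -0.16 for Dlx2 and -0.25 for Barhl1, the cerebellar granule cell marker not called. With 1 library left out the ranges were -0.61 to 0.14 for Top2a, -0.67 to 0.14 for Eomes, -0.016 to 0.36 for Dlx2, -0.39 to 0.76 for Cdhr1 and -0.053 to 0.20 for Barhl1. The cause was not tested. Dcx, Mki67 and Top2a had means under 1 CPM, which limits what these depths can show for them.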
